A study of Mus musculus with 12 samples.

Results

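The genes described here are 10 members of the cytokine pathway that runs from leukemia inhibitory factor (Lif) to the transcription factor Stat3: Lif, the receptor chains Lifr, Osmr and Il6st, the kinase Jak1, Stat3, the inhibitor Socs3, the transcription factors Cebpb and Cebpd, and Igfbp5. They were taken by gene symbol from a list chosen with earlier results of these data known, and all 10 were present among the 11834 genes of the deposited table. RNA with polyA tails was sequenced from lactating mammary glands of C57BL/6 mice, 1 library per mouse. The 7 KO mice were Btn1a1-/-, lacking butyrophilin 1a1, a membrane protein that coats secreted milk fat globules, and the 5 WT mice were wild type. All were in lactation 1: KO replicate 3 was taken on day 8, KO replicate 4 on day 11 and the other 5 KO glands on day 10, while WT replicate 2 was taken on day 9, WT replicate 3 on day 11 and the other 3 WT glands on day 10. Per the labels, WT mice were harem bred, whereas mutant lines were kept apart by crossing heterozygous pairs, and all mice were fed 1 of 2 diets that are not given per mouse. Genotype, breeding line and diet therefore cannot be told apart. The tissue is a whole gland, so fewer cells of a type and less RNA per cell cannot be told apart either.

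Lif belongs to a family of cytokines that share the receptor chain gp130, encoded by Il6st. Lif binds Lifr, oncostatin M in mice binds mainly Osmr, and each of these chains pairs with gp130. Receptor-bound Jak kinases such as Jak1 then phosphorylate Stat3, which enters the nucleus and switches on genes that include its own inhibitor Socs3. In the mammary gland this pathway is known for involution, the regression after weaning: milk stasis induces Lif, Stat3 becomes active in the epithelium, and cells die and the gland is remodelled. Cebpd, Cebpb and Igfbp5 are known as genes that act in or are induced during that switch, and in lactation the related factor Stat5 is the dominant one.

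The level of the targeted gene matched the labels in every library. Btn1a1 lay between 5.10 and 6.02 log2 CPM (log2 of counts scaled to a common library total, CPM) in KO glands, against 11.03 to 11.23 log2 CPM in WT glands (log2 change -5.43, SE 0.13, limma adjusted p = 5.2e-13). Over all genes, 1108 of 11834 passed an adjusted p under 0.05, or 9.36%, with 4.84% higher and 4.52% lower in KO. The lactating state was plain in both groups: 11 secretory luminal markers, led by the milk protein genes Csn2 and Wap, summed to between 478960 and 502651 CPM in KO glands and between 478757 and 480806 CPM in WT glands. The deposited values were quantile-normalized, which draws values of the same rank together across libraries. These sums therefore cannot compare the amount of milk protein RNA between the groups. The table holds no read counts, so no counting interval is given for any level.

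Of the 10 members 2 rose in KO, Lif and Stat3, 0 fell, and 8 did not pass. That is 20% of the members beside the 9.36% of all genes that were called, and with 10 members such a count does not set them apart. The median log2 change of the members was 0.32, beside -0.03 over all 11834 genes, and 9 of the 10 changes were above 0. Those of Jak1 (0.04), Il6st (0.06) and Cebpb (0.06) were small. Because the members were chosen with earlier results of these data known, this direction is no independent evidence. For 1 member, Lif, the range of the KO glands was clear of that of the WT glands, as it was for 5.43% of all genes (2.69% with KO above WT and 2.74% with KO below WT).

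**Figure D1:**
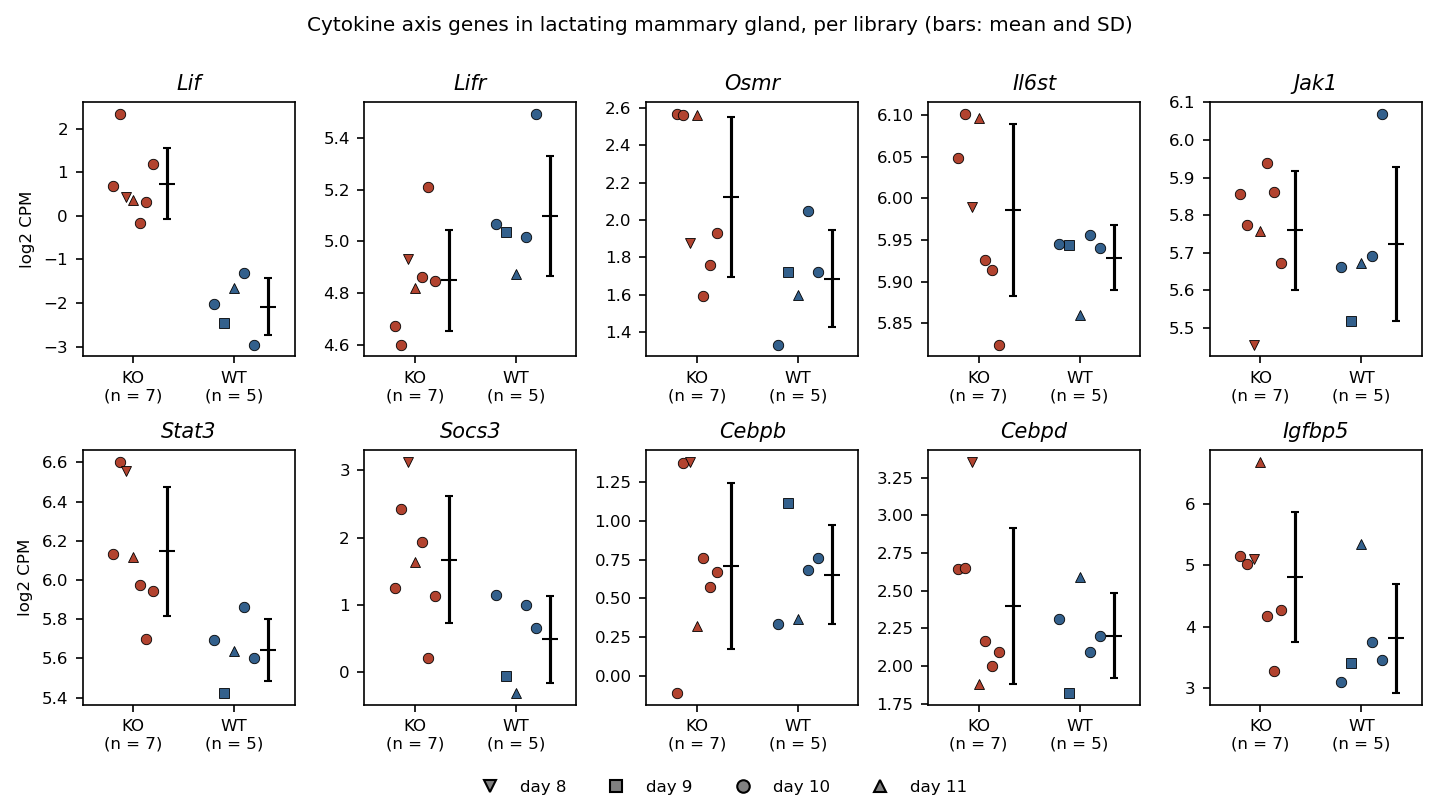
Level of each of the 10 members in log2 CPM (vertical axes, which differ between panels) in 7 KO and 5 WT glands, 1 point per library, with the mean and SD of each group beside the points and the marker shape giving the lactation day. Lif is the member whose KO libraries all lie above all WT libraries. The Stat3 points overlap in 1 KO library, and the Igfbp5 points are highest on day 11 in both groups.

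Lif, the secreted cytokine at the head of the pathway, rose in KO glands and stood near the bottom of the table in WT glands. Its gene lies on chromosome 11 from 4257557 to 4272514 (mm10, plus strand). Its level in KO glands ran from 0.889 CPM in replicate 5 through a median of 1.34 CPM to 5.07 CPM in replicate 2, with the 5 in between at 1.24 to 2.28 CPM. In WT glands it was 0.248, 0.182, 0.315, 0.404 and 0.129 CPM in replicates 1 to 5. Every KO library was above every WT library, and the closest pair was KO replicate 5 and WT replicate 4. On the log2 scale Lif averaged 0.74 ± 0.82 log2 CPM in KO glands (SD, n = 7) and -2.08 ± 0.65 log2 CPM in WT glands (SD, n = 5), a log2 change of 2.82 (SE 0.41, limma adjusted p = 0.00217). As a fold this is 7.05, with a 95% interval from 3.86 to 12.9. An exact two-sided permutation of the labels gave p = 0.00126, the smallest value 7 against 5 libraries allow. The WT level of Lif was higher than that of only 0.161% of the genes in the table, and the KO level higher than that of 13.8%. The read counts behind so low a level were not used here. The gene filter is not given, so Lif may have entered the table through its KO level alone. In that case its separate ranges and permutation p are no independent support.

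The Lif call held without any single library, with log2 changes between 2.55 and 3.01 and adjusted p of at most 0.00855, and with the day 10 glands alone (log2 change 2.97, adjusted p = 0.0270). It did not pass with a macrophage (adjusted p = 0.141) or a basal cell marker score (adjusted p = 0.0984) as a covariate in limma. The authors' deposited table gives a log2 change of 2.86 and a limma adjusted p of 0.0121. Its t statistic implies an SE of 0.60, larger than the 0.41 of the fit used here, so the fold is less precise by those statistics. Of the 11 ligands of the gp130 family that were listed, the table held Lif and Ctf1, which encodes cardiotrophin 1. Ctf1 did not pass (log2 change -0.58, 95% interval -1.32 to 0.15, adjusted p = 0.298); its KO libraries lay between -1.49 and 0.50 log2 CPM and its WT libraries between -0.12 and 0.60 log2 CPM. Osm, the gene of oncostatin M, which lies 16.5 kb from Lif on chromosome 11, was not among the genes analysed here.

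Stat3, the transcription factor of the pathway, rose by a much smaller step and stood at a high level in both groups. In KO glands it ran from 5.70 log2 CPM in replicate 6 through a median of 6.12 to 6.60 log2 CPM in replicate 2, with replicate 3 close behind at 6.56 log2 CPM. In WT glands it was 5.69, 5.42, 5.64, 5.86 and 5.60 log2 CPM in replicates 1 to 5. Of the 7 KO libraries 6 lay above all WT libraries, and KO replicate 6 lay among them. The means were 6.15 ± 0.33 log2 CPM in KO glands (SD, n = 7) and 5.64 ± 0.16 log2 CPM in WT glands (SD, n = 5). The log2 change was 0.50 (SE 0.14, limma adjusted p = 0.0406), a 1.42-fold higher level with a 95% interval from 1.15 to 1.75 (exact permutation p = 0.00884, unadjusted).

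The Stat3 call stood near the threshold. It ended when any 1 of 8 libraries was left out, KO replicate 1, 2, 3 or 4 or WT replicate 1, 2, 3 or 5, with log2 changes between 0.43 and 0.52 and an adjusted p of up to 0.101 (without WT replicate 2). It also ended with day 10 glands alone (log2 change 0.35, adjusted p = 0.274) and with limma's plain eBayes step (adjusted p = 0.0621). The same held with the muscle, macrophage or basal marker score, described at the end, as a covariate. The other marker scores were not fitted as covariates. Stat3 lies on chromosome 11 from 100885098 to 100939540 (mm10, minus strand) and its end overlaps that of Stat5a, on the plus strand, by 72 bases in GENCODE M21. The labels do not say whether counting used the strand, so reads in that overlap cannot be assigned with certainty.

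Jak1, the kinase that carries the signal from gp130 to Stat3, did not pass the test. It averaged 5.76 ± 0.16 log2 CPM in KO glands (SD, n = 7) and 5.72 ± 0.21 log2 CPM in WT glands (SD, n = 5), a difference of 0.04 with a 95% interval from -0.17 to 0.25 (limma adjusted p = 0.851), and the groups overlapped. The lowest library was KO replicate 3 at 5.46 log2 CPM and the highest was WT replicate 5 at 6.07 log2 CPM. Of the 10 Jak and Stat genes measured, 2 rose, Stat3 and Jak3, 0 fell and 8 did not pass, with a list median of 0.10. The share called among all genes was 9.36%.

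Jak3, a kinase of cytokine receptors that use the common gamma chain and best known in lymphocytes, had a log2 change of 0.67 (SE 0.15, limma adjusted p = 0.0123). All 7 KO libraries, from 2.39 to 3.25 log2 CPM, lay above all 5 WT libraries, from 1.71 to 2.32 log2 CPM. Its call ended with day 10 glands alone (log2 change 0.70, adjusted p = 0.0768) and with the muscle (0.56, adjusted p = 0.0794), basal (0.52, adjusted p = 0.251) or macrophage marker score (0.39, adjusted p = 0.503) as a covariate. None of the 8 listed T cell markers was among the genes in the table. The nearest other genes of this list, Stat2 (log2 change 0.26), Jak2 (0.32) and Stat6 (-0.20), had adjusted p of 0.0734, 0.0770 and 0.0776 by limma. Stat2 acts in interferon signalling, Jak2 beneath the prolactin receptor and Stat6 beneath the interleukin 4 receptor. For Stat6 all 7 KO libraries, 4.67 to 4.97 log2 CPM, lay below all 5 WT libraries, 4.98 to 5.08 log2 CPM, though the closest libraries of the groups were only narrowly apart.

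The stretches of DNA upstream of Lif, Stat3 and Socs3 are shown because Lif and Stat3 are the members that rose and Socs3 is the classical feedback target of Stat3. Sequences are from RefSeq (GRCm38.p6), the 250 bases before RefSeq's start of the gene, 5′ to 3′ on its strand; GENCODE M21 starts Lif and Socs3 further upstream. Capitals mark TGANTCA, the AP-1 element, and TTNNNNNAA, a loose form of the Stat element, in Lif and Stat3, and TTCNNNGAA, the tighter Stat element, in Socs3.
Lif, chr11:4257318-4257567, plus strand: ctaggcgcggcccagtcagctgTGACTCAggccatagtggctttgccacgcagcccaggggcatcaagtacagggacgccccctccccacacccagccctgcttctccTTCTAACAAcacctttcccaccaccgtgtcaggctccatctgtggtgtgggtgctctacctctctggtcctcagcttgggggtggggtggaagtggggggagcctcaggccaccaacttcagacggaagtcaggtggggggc
Stat3, chr11:100939541-100939790, minus strand: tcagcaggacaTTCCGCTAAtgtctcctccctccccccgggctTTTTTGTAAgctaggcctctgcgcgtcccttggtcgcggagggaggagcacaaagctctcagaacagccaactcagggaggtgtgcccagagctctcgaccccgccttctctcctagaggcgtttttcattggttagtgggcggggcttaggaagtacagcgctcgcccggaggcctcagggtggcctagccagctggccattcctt
Socs3, chr11:117969367-117969616, minus strand: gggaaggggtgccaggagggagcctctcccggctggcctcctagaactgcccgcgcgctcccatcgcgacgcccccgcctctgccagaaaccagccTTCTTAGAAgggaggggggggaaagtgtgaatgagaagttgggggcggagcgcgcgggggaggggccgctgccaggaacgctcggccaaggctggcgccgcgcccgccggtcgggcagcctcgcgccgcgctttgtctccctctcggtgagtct

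Windows were matched for 9 of the 10 members, all except Cebpd. All 3 motifs read the same on both strands, and each TTCNNNGAA is also a TTNNNNNAA. TTCNNNGAA was found in 1 of the 9, in Socs3, where it starts 154 bases before that start, and in 8.13% of the 27025 genes with a window (7.25% of those in the expression table). TTNNNNNAA was found in 7 of the 9 and in 58.9% of all genes with a window, or 48.1% of the 8874 of them that are in the expression table. TGANTCA was found in 1 of the 9, in Lif, 228 bases before the start, and in 7.82% of all genes with a window (5.45% of those in the expression table). These are matches of letters, not binding sites.

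The receptor chains did not pass the test in either direction. Lifr, the chain that binds Lif, averaged 4.85 ± 0.20 log2 CPM in KO glands (SD, n = 7) and 5.10 ± 0.23 log2 CPM in WT glands (SD, n = 5), a log2 change of -0.25 (95% interval -0.49 to -0.01, limma adjusted p = 0.172). Of the KO libraries 5 lay below all WT libraries, while KO replicates 3 and 6, at 4.93 and 5.21 log2 CPM, lay among the WT values of 4.87 to 5.50 log2 CPM. Osmr, the chain for oncostatin M, had a log2 change of 0.44 (95% interval 0.02 to 0.85, limma adjusted p = 0.164).

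For Osmr the KO glands lay at separate levels. KO replicates 1, 2 and 4 held 2.57, 2.56 and 2.56 log2 CPM, above every WT library, whereas the other 4 KO libraries lay between 1.59 and 1.93 log2 CPM, inside the WT range of 1.33 to 2.05 log2 CPM. The genes of Osmr and Lifr lie 216 kb apart on chromosome 15. Il6st, the shared chain gp130, stood at 5.99 ± 0.10 log2 CPM in KO glands (SD, n = 7) and 5.93 ± 0.04 log2 CPM in WT glands (SD, n = 5). Its difference of 0.06 had a 95% interval from -0.08 to 0.19 (limma adjusted p = 0.605).

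Among the other chains of the family, the receptors of interleukin 6 and interleukin 11, Il6ra and Il11ra1, had log2 changes of -0.16 and -0.10 (limma adjusted p = 0.386 and 0.530). In all, 5 of the 9 listed chains were measured, with 0 called in either direction, 2 at an unadjusted p under 0.05 by limma (Lifr and Osmr) and a list median of -0.10. For comparison, 9.36% of all genes were called and 26.6% had an unadjusted p under 0.05.

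Socs3, which blocks gp130 and its Jak kinases and is induced by Stat3, had the second largest change of the members but also a wide spread. In KO glands it ran from 0.21 log2 CPM in replicate 6 through a median of 1.63 to 3.12 log2 CPM in replicate 3, the gland taken on day 8. In WT glands it was 1.14, -0.06, -0.31, 1.00 and 0.66 log2 CPM in replicates 1 to 5. Of the KO libraries 5 lay above all WT libraries and the other 2 among them. The means were 1.67 ± 0.94 log2 CPM in KO glands (SD, n = 7) and 0.49 ± 0.64 log2 CPM in WT glands (SD, n = 5). The log2 change of 1.18 (95% interval 0.23 to 2.14) did not pass (limma adjusted p = 0.109). It passed without KO replicate 6 (log2 change 1.43, adjusted p = 0.0301), and with day 10 glands alone it was 0.45 (adjusted p = 0.595), 5 KO against 3 WT libraries.

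Among 15 measured inhibitors of cytokine signalling 0 rose, 1 fell and 14 did not pass, with a median of 0.04. Among all genes 4.84% rose and 4.52% fell. The one that fell was Pias1, which encodes a SUMO ligase that restrains cytokine signalling, with a log2 change of -0.37 (SE 0.10, limma adjusted p = 0.0321). Its 7 KO libraries, 2.02 to 2.32 log2 CPM, lay below its 5 WT libraries, 2.41 to 2.81 log2 CPM. That call ended without KO replicate 2 (adjusted p = 0.0628), WT replicate 1 (0.0916), WT replicate 2 (0.0562) or WT replicate 4 (0.0776), with day 10 glands alone (0.0995), and with the muscle (0.111), basal (0.256) or macrophage score (0.454) as a covariate. Its log2 change lay between -0.31 and -0.42 in these settings. The phosphatases Ptpn2 and Ptpn1, which act on Jak and Stat proteins, had log2 changes of 0.43 and 0.28 (limma adjusted p = 0.0690 and 0.130). Pias4, a relative of Pias1, had a log2 change of -0.30 (limma adjusted p = 0.230). Cish and Socs2, inhibitors known to be induced by Stat5, differed by 0.04 (95% interval -0.55 to 0.63) and -0.20 (95% interval -0.83 to 0.43); these 2 were named after their values were seen.

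**Figure D2:**
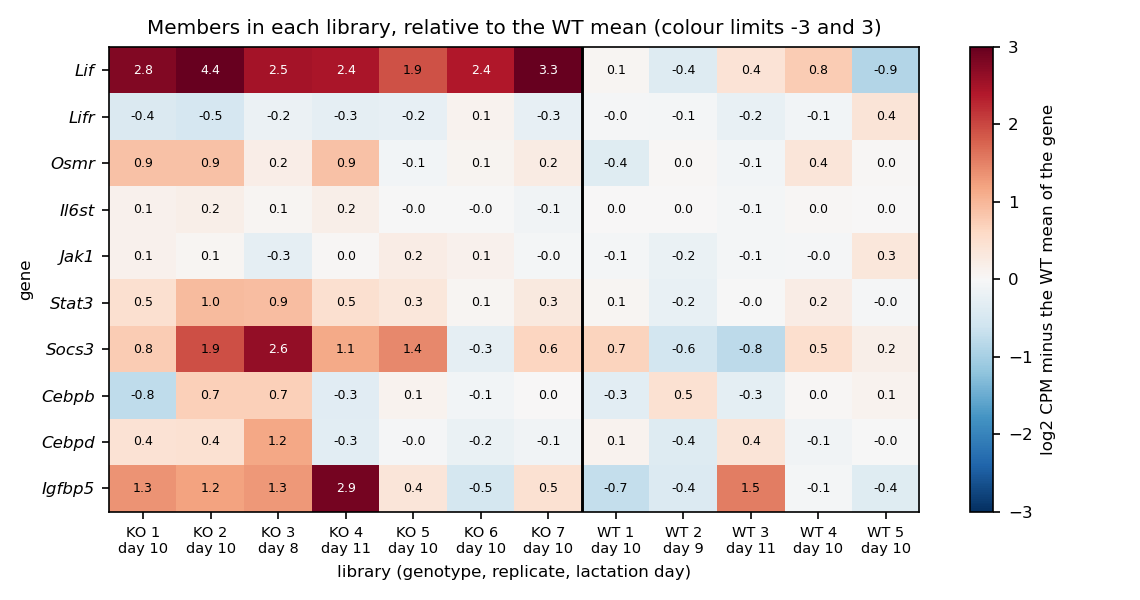
Log2 CPM of each member (rows) in each library (columns, KO left of WT, with lactation day) minus the WT mean of that gene, as colour and number. Lif is above its WT mean in all 7 KO libraries, while in KO replicate 6 Stat3 stands 0.05 above its WT mean and Socs3 and Igfbp5 stand at -0.28 and -0.53.

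No C/EBP transcription factor passed the test. Cebpd, which Stat3 is known to induce in involution, averaged 2.40 ± 0.52 log2 CPM in KO glands (SD, n = 7) and 2.20 ± 0.28 log2 CPM in WT glands (SD, n = 5), a difference of 0.20 (95% interval -0.29 to 0.68, limma adjusted p = 0.620). KO replicate 3 stood highest at 3.35 log2 CPM, KO replicates 1 and 2 followed at 2.64 and 2.65 log2 CPM, and the other 4 lay within the WT range of 1.82 to 2.59 log2 CPM. Cebpb, a factor needed for mammary epithelial development, differed by 0.06 (95% interval -0.48 to 0.59, limma adjusted p = 0.914).

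For Cebpb the KO libraries lay on both sides of the WT libraries. KO replicates 2 and 3, at 1.37 and 1.38 log2 CPM, were above the WT range of 0.34 to 1.12 log2 CPM, and KO replicates 1 and 4, at -0.11 and 0.32 log2 CPM, were below it. The sign of the Cebpb difference turned when KO replicate 2 or 3 or WT replicate 1 or 3 was left out. Of the 6 measured C/EBP genes 0 rose and 0 fell by limma, and 0 had an unadjusted p under 0.05. Among all genes 9.36% were called and 26.6% had an unadjusted p under 0.05. The largest changes after Cebpd were -0.16 for Cebpa (limma adjusted p = 0.572) and 0.14 for Cebpz (limma adjusted p = 0.398).

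Igfbp5, a binding protein that holds insulin-like growth factors away from their receptor and that is secreted at high levels by involuting glands, was the most variable member. In KO glands it ran from 3.27 log2 CPM in replicate 6 through a median of 5.01 to 6.68 log2 CPM in replicate 4. In WT glands it was 3.09, 3.41, 5.34, 3.74 and 3.45 log2 CPM in replicates 1 to 5. The highest library of each genotype, KO replicate 4 and WT replicate 3, was the one taken on day 11, and there is 1 such library per genotype. The log2 change was 1.00 (95% interval -0.25 to 2.25, limma adjusted p = 0.288). Without KO replicate 4 it was 0.69 and without WT replicate 3 it was 1.39, and neither value passed (adjusted p = 0.414 and 0.148). The score of 9 fibroblast markers, their mean log2 level over WT, was also highest in these libraries within each genotype, at 0.94 in KO replicate 4 and 0.28 in WT replicate 3. KO replicate 4 was also the highest KO gland for the macrophage, adipocyte, endothelial and muscle scores. WT replicate 3 was also the highest WT gland for the basal and lymph node stroma scores. With the muscle, macrophage or basal score as a covariate the log2 change of Igfbp5 was 0.29, -0.0078 or 0.54 (limma adjusted p = 0.790, 0.999 and 0.788). The part of the fibroblast score in the Igfbp5 levels was not tested.

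Other genes of the insulin-like growth factor axis did pass. Igf1, the growth factor itself, rose by a log2 change of 1.25 (SE 0.19, limma adjusted p = 0.00308), with KO libraries from 5.62 to 6.52 log2 CPM, all above the WT libraries from 4.25 to 5.14 log2 CPM. Igfbp2, another binding protein, rose by 0.89 (SE 0.20, limma adjusted p = 0.0160), and in KO replicate 3 alone, at 2.21 log2 CPM, the level lay inside the WT range of 1.16 to 2.33 log2 CPM. The Igfbp2 call ended with the muscle (log2 change 0.94, adjusted p = 0.0517), macrophage (1.29, adjusted p = 0.116) or basal score (0.55, adjusted p = 0.318) as a covariate, and the Igf1 call with the macrophage score (1.17, adjusted p = 0.179). Of 15 measured genes of the axis 2 rose, 0 fell and 13 did not pass, with a median of 0.24. The share called among all genes was 9.36%. Irs1, an adaptor beneath the insulin and Igf1 receptors, had a log2 change of -0.37 (adjusted p = 0.0555), and Igfbp3, a further binding protein, one of 0.66 (adjusted p = 0.0616), both by limma.

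Of 29 other measured genes that Stat3 is known to induce in some tissue, 10 rose in KO, 0 fell and 19 did not pass, with a median log2 change of 0.46, beside -0.03 for all genes. Among all genes 4.84% rose and 4.52% fell. This list was drawn up with earlier results of these data known, and several of its genes also answer to other inflammatory factors, so its direction is no independent evidence. Lcn2, an iron-sequestering protein, rose by 2.13 (SE 0.24, limma adjusted p = 0.000841), with KO libraries from 8.89 to 10.12 log2 CPM and WT libraries from 7.18 to 8.01 log2 CPM. Bcl3, a partner of NF-kB subunits, rose by 1.53 (SE 0.26, limma adjusted p = 0.00435), with KO libraries from 1.64 to 3.45 log2 CPM and WT libraries from 0.95 to 1.63 log2 CPM. The Lcn2 and Bcl3 calls ended with the macrophage or basal score as a covariate (limma adjusted p of up to 0.0808 and 0.241).

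Timp1, an inhibitor of matrix proteases, rose by 0.93 (SE 0.13, limma adjusted p = 0.00188). The Timp1 call ended with the macrophage score as a covariate (limma adjusted p = 0.141). Fgg, a fibrinogen chain of the acute phase, had a fitted log2 change of 3.85 (SE 0.64, limma adjusted p = 0.00365), and its WT values of -4.86 to -1.95 log2 CPM include the lowest value of the library in WT replicates 1 and 4. As the gene filter is not given, Fgg may have entered the table through its KO level alone. In that case its call is no independent support. The Fgg call ended with the macrophage or basal score as a covariate (limma adjusted p of up to 0.186). The other 6 that rose were Junb, Fos, Lbp, Lrg1, Saa1 and Saa2, and the split of reads between the close paralogs Saa1 and Saa2 is uncertain. The members of the list that are best known for cell survival did not pass: Mcl1 had a log2 change of 0.32 (adjusted p = 0.0501), Bcl2l1 one of 0.44 (adjusted p = 0.0645) and Pim1 one of -0.58 (adjusted p = 0.107), all by limma and named after their values were seen.

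**Figure D3:**
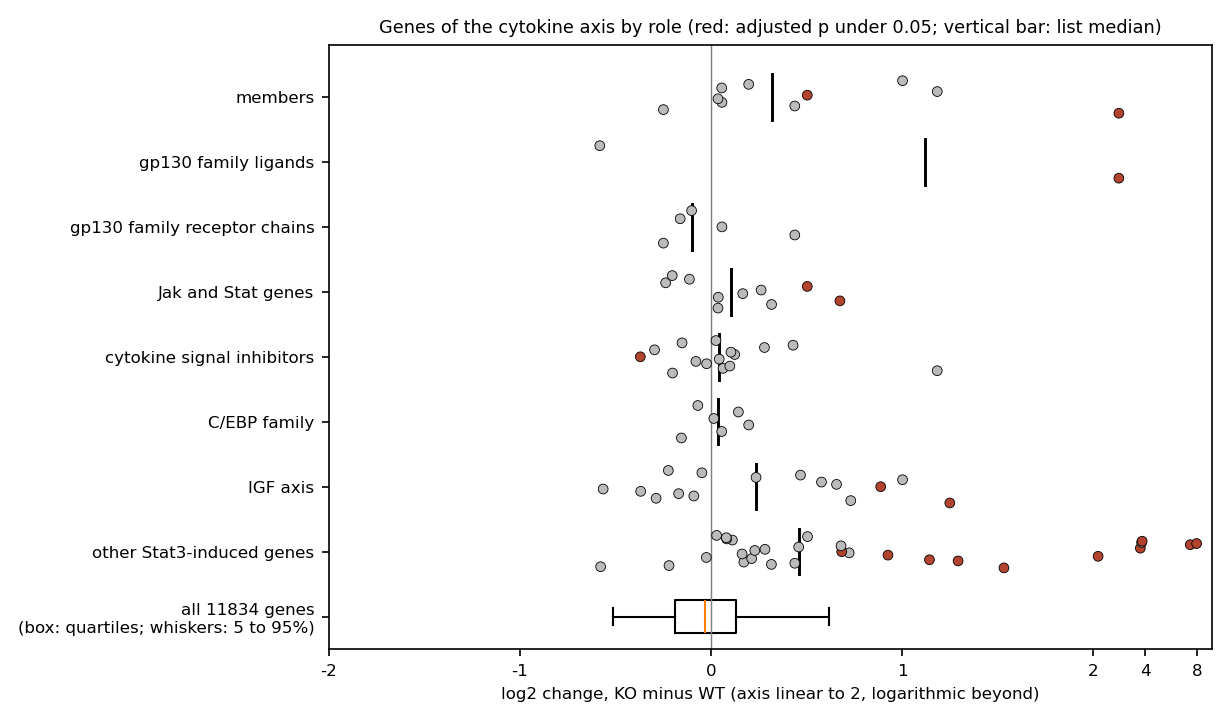
Log2 change of KO minus WT (horizontal axis, linear to 2 and logarithmic beyond) for the members and for genes of 7 pathway lists, 1 point per gene, red where the limma adjusted p is under 0.05, with a bar at the list median and a box of quartiles for all 11834 genes. Called genes stand among the ligands (Lif), Jak and Stat genes (Stat3, Jak3), inhibitors (Pias1), IGF axis (Igf1, Igfbp2) and 10 other Stat3-induced genes, and none among receptor chains or C/EBP genes.

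Across the 7 pathway lists and the members together, 82 genes were measured, of which 15 rose, 1 fell and 66 did not pass. Over all genes 4.84% rose and 4.52% fell. Of the 15 that rose, 10 were in the list of other Stat3-induced genes. The lists were drawn up with earlier results of these data known, so the counts are a description. The 16 calls became 8 with day 10 glands alone, 8 with the muscle score as a covariate, 2 with the basal score and 0 with the macrophage score. The count of members called, 2, became 1, 1, 0 and 0 in those settings.

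**Figure D4:**
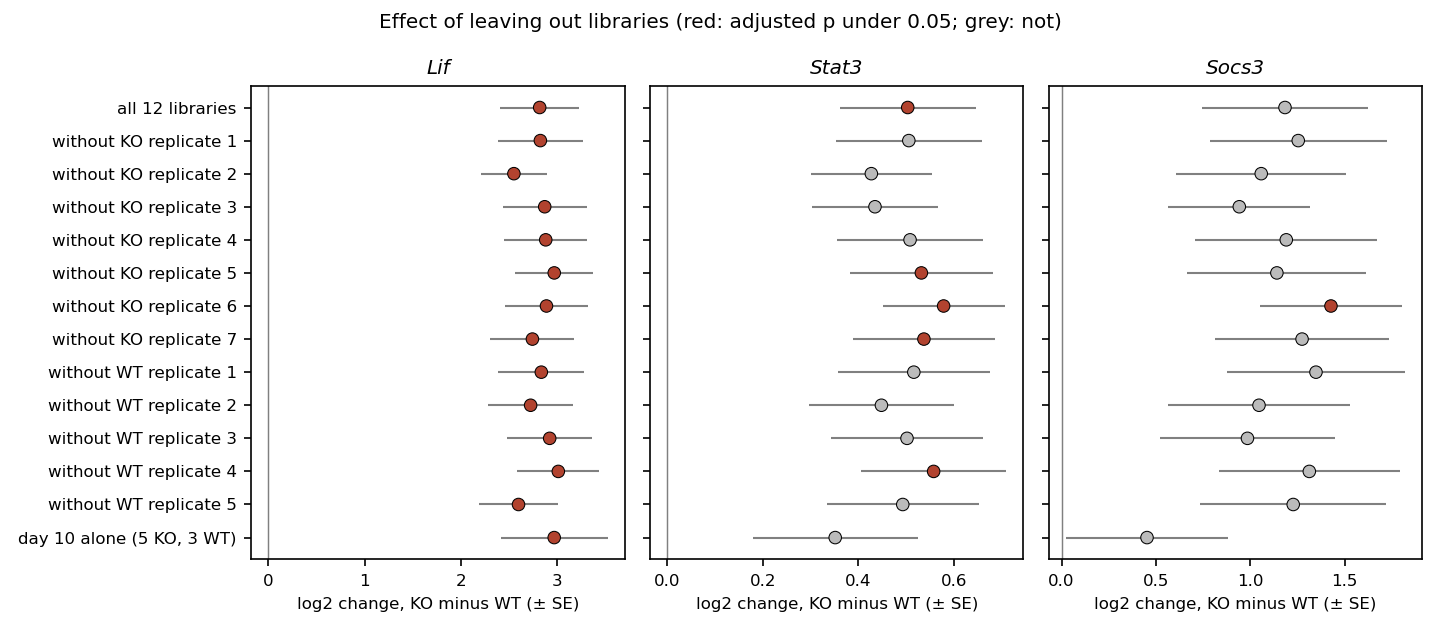
Log2 change of KO minus WT with its SE for Lif, Stat3 and Socs3 (horizontal axes, which differ between panels) with all 12 libraries, without each library in turn and with day 10 glands alone, red where the limma adjusted p is under 0.05. Lif keeps its call in every row, Stat3 in 5 of the 14 rows, and Socs3 is called in the row without KO replicate 6.

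Among the KO glands, KO replicate 2 was in the top 2 for 7 of the 10 members and KO replicate 3 for 5. KO replicate 2 was highest for 3 members (Lif, Stat3 and Il6st), KO replicate 3 for 3 others (Socs3, Cebpb and Cebpd) and KO replicate 4 for Igfbp5. KO replicate 6 was lowest for Stat3, Socs3 and Igfbp5 and highest for Lifr, and its Lif level of 0.31 log2 CPM was the second lowest of the KO glands. KO replicate 6 also had the lowest macrophage (-0.03), skeletal muscle (-1.09), fibroblast (0.0014) and endothelial (-0.56) marker scores of the KO glands, relative to WT. The secretory luminal, basal, adipocyte and lymph node stroma scores were lowest in KO replicate 3. The part of these scores in the levels of KO replicate 6 was not tested. Over the 7 KO libraries Lif and Stat3 had a Pearson r of 0.54 (exact permutation p = 0.208, adjusted p = 0.624) and a Spearman rho of 0.54 (exact permutation p = 0.236, adjusted p = 0.530), and r was 0.32 without KO replicates 2 and 7, the 2 libraries farthest from the median Lif level. The value turned on single libraries: r was 0.022 without KO replicate 2 and 0.76 without KO replicate 3, and rho was 0.89 without KO replicate 7 (exact permutation p = 0.0333, adjusted p = 0.150).

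Lif and Socs3 had an r of 0.20 (exact permutation p = 0.651, adjusted p = 0.779) and a rho of 0.14 (exact permutation p = 0.783, adjusted p = 0.783). Lif and Osmr had a rho of 0.75 (exact permutation p = 0.0663, adjusted p = 0.493) and an r of 0.55 (exact permutation p = 0.204, adjusted p = 0.624), or an r of 0.73 without the same 2 libraries. Lif and Lifr had a rho of -0.68 (exact permutation p = 0.110, adjusted p = 0.493) and an r of -0.59 (exact permutation p = 0.172, adjusted p = 0.624), or an r of -0.27 without those 2, and after cyclic loess the rho of Lifr was the larger in size (-0.79 for Lifr, 0.61 for Osmr). Of the 9 relations of Lif with other members, 0 passed after adjustment over the 9. In the deposited values of the 7 KO libraries 0 had an unadjusted p under 0.05 by either measure. After cyclic loess the rho of Lifr had an exact permutation p of 0.0480 (adjusted p = 0.432). Without KO replicate 7 the rho of Osmr was 0.89 (exact permutation p = 0.0333, adjusted p = 0.150). With 7 libraries, weak and moderate relations were not detectable.

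Levels of the members were compared with each other only after division by the merged length of their exons, in kb. Stat3 led in KO glands at 7.61 ± 1.78 CPM per kb (SD, n = 7), followed by Jak1 at 7.53, Igfbp5 at 5.99 and Il6st at 5.72 CPM per kb. Within these 4, neighbours in the order differed by less than the larger SD. Below them stood Lifr at 2.70 CPM per kb, apart from its neighbours on both sides, and then Cebpd (1.50), Socs3 (1.32) and Cebpb (1.15), which were not separated by more than their spread. Lif and Osmr closed the order at 0.451 and 0.373 CPM per kb in KO glands.

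In WT glands Jak1 led at 7.37 ± 1.12 CPM per kb (SD, n = 5), ahead of Il6st at 5.49 and Stat3 at 5.27 CPM per kb, which lay within their spread of each other. Lifr (3.21) and Igfbp5 (2.80 CPM per kb) followed, then Cebpd (1.25) and Cebpb (1.07 CPM per kb), Socs3 at 0.523 and Osmr at 0.269 CPM per kb. Lif stood last at 0.0587 ± 0.0250 CPM per kb (SD, n = 5), below Osmr by more than their spread. Merged exons count every annotated transcript, so genes with long alternative ends are set too low on this scale.

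The genes whose profile over the 12 libraries lay closest to that of Lif, each profile set to 0 at its own WT mean, were Cldn4, Dmkn, Slc41a2 and Cxcl1. Their root mean square differences from Lif were 0.53, 0.64, 0.68 and 0.69 on the log2 scale, where the median gene of the table was at 2.29. Cldn4 encodes a tight junction claudin, Dmkn a protein secreted by epidermal keratinocytes, Slc41a2 a magnesium transporter and Cxcl1 a neutrophil attractant. Their own log2 changes were 2.76, 3.26, 2.33 and 2.70, and each was higher in every KO library than in any WT library. Among all genes 2.69% had KO above WT in this way. Likeness to Lif over the same libraries was the rule of choice, so this separation is largely a result of the choice. Dmkn averaged -2.29 log2 CPM in WT glands, so it too may have entered the table through its KO level alone.

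The genes closest to Stat3 were Ptp4a1, a phosphatase, Tnfaip6, a secreted hyaluronan-binding protein, Bzw2 and Txndc12, a thioredoxin-domain protein of the endoplasmic reticulum. Their root mean square differences were 0.13, 0.15, 0.15 and 0.15 on the log2 scale, where the median gene was at 0.54. Of these 4 only Ptp4a1 was called (log2 change 0.49, limma adjusted p = 0.0248). Since all these genes were selected for likeness to Lif or Stat3, their changes are a description.

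The macrophage, basal, muscle and fibroblast marker scores averaged higher in KO glands beside these results, and the endothelial and lymph node stroma scores lower. No score passed after adjustment over the 8 lists. The 13 macrophage markers scored 0.32 higher in KO (exact permutation p = 0.0126, adjusted p = 0.0808 over 8 lists), with 5 of the 7 KO scores over the highest WT score, and summed to between 116 and 222 CPM in KO glands and between 106 and 140 CPM in WT glands; 4 of the 13 rose and 0 fell. The 9 basal and myoepithelial markers scored 0.31 higher (6 of 7 above, exact permutation p = 0.0202, adjusted p = 0.0808), and summed to between 572 and 879 CPM in KO glands and between 509 and 684 CPM in WT glands; 5 of the 9 rose and 0 fell. Skeletal muscle markers scored 1.14 higher (5 of 7 above, exact permutation p = 0.117, adjusted p = 0.230), from 89.8 to 1486 CPM in KO glands and from 61.7 to 412 CPM in WT glands, with 0 of 11 called. Beside these marker counts, 4.84% of all genes rose and 4.52% fell.

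With the macrophage score as a covariate the log2 change of Lif was 2.69 (adjusted p = 0.141), with the basal score 2.23 (adjusted p = 0.0984) and with the muscle score 2.86 (adjusted p = 0.0125), all by limma. For Stat3 these log2 changes were 0.13 (adjusted p = 0.821), 0.57 (adjusted p = 0.229) and 0.43 (adjusted p = 0.174), and for Socs3 they were 0.09 (adjusted p = 0.973), 1.93 (adjusted p = 0.138) and 0.97 (adjusted p = 0.335). The macrophage and basal scores overlapped little between genotypes, and in those fits 7 and 12 genes of the whole table were called, so the part of these cell types in the levels of the members cannot be told apart from genotype. Fibroblast markers scored 0.38 higher (4 of 7 above, exact permutation p = 0.0543), while the adipocyte, endothelial, lymph node stroma and secretory luminal scores differed by 0.06, -0.17, -0.19 and 0.02, with exact permutation p of 0.720, 0.273, 0.144 and 0.343. The secretory luminal score is held in part by the quantile normalization, so its small difference does not show equal milk protein RNA. None of the 9 listed neutrophil markers and 2 of the 7 B and plasma cell markers were among the genes in the table.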

How the data were processed

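Each mouse gave 1 polyA library (TruSeq mRNA), sequenced from both ends, per the labels' protocols. The submitters' processing notes name STAR 2.5.2b, RSEM 1.3.0, limma 3.34.5, Trimmomatic 0.33 and bcl2fastq 2.17, and the builds mm10 and hg19 without a role. Annotation and gene filter: not given in the sources used here. Per the file headers and values, the authors deposited log2 CPM, as voom gives them, already quantile-normalized: 67.1% of ranks differed by less than 0.01 log2 between the 12 libraries, with library sums of 988803 to 988808 CPM. The authors' deposited table also holds their log2 fold change, their moderated t statistic (a score) and p-values with adjusted p-values. Such normalization can hide a shift shared by most genes. Read counts were not used, and p-values measure the spread between these mice.

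Genotype was fitted to these log2 values by limma 3.58.1 (R 4.3.3) over all 12 libraries, with eBayes using trend and robust options. P-values are two-sided, adjusted by Benjamini-Hochberg over 11834 genes and called under 0.05. The fit was tested on simulated data. Members and lists were chosen with earlier results of these data known. Named genes were the members, up to 4 other genes of smallest adjusted p per pathway list, the 4 profiles closest to Lif and to Stat3, and Btn1a1; others are said to be chosen after their values were seen. For single values an exact, two-sided permutation test was run over the genotype labels. Coordinates and exon lengths are from GENCODE M21 (mm10). Python 3.11.15 and matplotlib 3.10.9 drew the figures. Alternatives were a replicate block, lactation day, day 10 glands, cyclic loess, median centring, a mean of at least 1 log2 CPM, plain eBayes, library weights, the authors' statistics and leaving out each library. Marker score covariates were chosen after seeing the data. No pseudocount was added here to the deposited log2 values, any offset already in them was kept, and unfiltered values were not used here. Protein sequences were not analysed here.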

Additional observations from a re-analysis of the deposited data

Results flagged for a closer look

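Libraries that stood apart from the rest of their group were sought by Dixon's ratio at the 95% level in 82 sets of values, of which chance flags about 1 in 20, or 4.1; 7 were found, all in WT glands. WT replicate 3, taken on day 11, was the highest WT library for Igfbp5 at 5.34 log2 CPM (others 3.09 to 3.74) and for Lcn2 at 8.01 log2 CPM (others 7.18 to 7.32). The same library was the lowest for Il6st at 5.86 log2 CPM (others 5.94 to 5.96) and for Timp1 at 3.22 log2 CPM (others 3.76 to 3.95). WT replicate 2, taken on day 9, was lowest for Jak2 at 3.56 log2 CPM (others 3.97 to 3.99), and its adipocyte marker score of 0.53 was the highest (others -0.19 to -0.06). WT replicate 1 had the highest secretory luminal score, at 0.048 (others -0.023 to -0.0070).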

How the results depend on the processing

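The 1108 calls among all genes became 268 with day 10 glands only, 270 with the muscle score, 7 with the macrophage score and 12 with the basal score, and lay between 559 (without WT replicate 1) and 1327 (without KO replicate 6) when 1 library was left out. Members called, 2, became 1 with day 10 glands, when genes averaging under 1 log2 CPM were dropped (which leaves Lif and Cebpb untested), with plain eBayes (Stat3 adjusted p = 0.0621) or with the muscle score, 0 with the macrophage or basal score, and 1 to 3 without 1 library. Pathway genes called, 16, became 8 with day 10 glands, 8 with the muscle score, 0 with the macrophage score and 2 with the basal score, and 13 to 20 without 1 library. Marker scores with an unadjusted exact permutation p under 0.05, 2 of 8, became 1 with day 10 glands and 2 to 4 without 1 library. The relations of Lif within KO gave 0 calls in every setting run. For Lif, the log2 change stayed between 2.23 and 3.01 and above 0 in every setting run.

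Signs turned for genes that were not called. With the macrophage score they turned for Osmr (-2.4e-05), Il6st (-0.064), Cebpb (-0.070), Cebpd (-0.12), Igfbp5 (-0.0078), Il11ra1 (0.0039) and Cebpg (-0.044), and with the basal score for Jak1 (-0.052), Ctf1 (0.14) and Il6ra (0.013). Ddit3 turned with day 10 glands (0.0044). Without 1 library the log2 changes of Jak1 ran between -0.015 and 0.12, of Cebpb between -0.056 and 0.19, of Ddit3 between -0.19 and 0.030 and of Cebpg between -0.029 and 0.063. The causes were not tested.

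Same-numbered mice are different animals, and their deviations correlated at -0.16, 0.0022, -0.17, 0.21 and 0.079 for numbers 1 to 5, so the numbers do not pair the samples. With the replicate block 1083 genes, 2 members and 15 pathway genes were called, the sign of Ddit3 turned (0.023), and among the named genes Pias1 (log2 change -0.38, adjusted p = 0.0752) and Igfbp2 (0.76, adjusted p = 0.0612) did not pass. Without read counts, the precision of low genes such as Lif in WT glands is unknown.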

Other observations

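Within a library, the Osmr level minus the Lifr level averaged -2.73 ± 0.58 on the log2 scale in KO glands (SD, n = 7) and -3.41 ± 0.34 in WT glands (SD, n = 5). KO replicates 1, 2, 4 and 7 lay above all WT libraries, and the other 3 KO libraries lay among them, between -3.45 and -3.05. The Stat3 level minus the Stat5a level averaged 0.37 ± 0.46 in KO glands (SD, n = 7) and -0.37 ± 0.48 in WT glands (SD, n = 5), with KO replicates 2, 3 and 4, at 1.26, 0.54 and 0.46, above all WT libraries. Both differences were chosen after the data were seen and carry no test, and levels were not divided by length, so the differences can be compared between libraries and not read as a ratio of molecules.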
